A study of Mus musculus with 7 samples.

Results

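A set of 10 genes known from blood vessel endothelium and shared with long-term haematopoietic stem cells (LT-HSCs) were followed in LT-HSCs of mice without endomucin. They are Tie1, Tek, Kdr, Eng, Robo4, Cdh5, Pecam1, Esam, Egfl7 and Ramp2, taken by symbol from the table of 54347 gene identifiers, in which all 10 were found. The groups were 3 KO libraries (Emcn-/-, ko_306, ko_314 and ko_320) and 4 WT libraries (Emcn+/+ littermates, wt_284, wt_290, wt_310 and wt_312), all of female mice of the background C57BL/6N-EMCN em1(IMPC)Wtsi /WtsiH, whose age the labels leave out. Each library was made from 3000 to 5000 LT-HSCs of the bone marrow of 1 mouse and held between 6444134 and 11101774 counts. Emcn, which encodes the sialomucin endomucin of the endothelial and stem cell surface, had 1, 0 and 0 counts in the KO libraries, against 130, 327, 223 and 216 counts in the WT libraries.

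Blood stem cells arise in the embryo from haemogenic endothelium and share part of their surface molecules with endothelium. Angiopoietins signal through Tek (TIE2), whose relative Tie1 is an orphan receptor that modulates it, and vascular endothelial growth factors signal through Kdr (VEGFR2). Endoglin is a co-receptor for ligands of the TGF-beta and BMP family, Robo4 is a roundabout receptor that helps stem cells to stay in the marrow, and Cdh5, Pecam1 and Esam encode adhesion molecules of cell junctions (VE-cadherin, CD31 and ESAM). Egfl7 encodes a secreted protein, so the label of a surface gene does not hold for it in the strict sense, and Ramp2 encodes an accessory chain that turns the receptor Calcrl into a receptor for adrenomedullin.

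Of the 3 receptor kinase genes, Kdr stood far below Tie1 and Tek in level in the same cells, as described below. No relation of sequence to level was tested. The windows around the start sites of all 3 are shown. Each runs from 250 bases before to 50 bases after the start site in GRCm38.p6, 5′ to 3′ on the strand of the gene, from RefSeq. Capitals mark the letters GGAAGT of the ETS family of transcription factors on either strand (ACTTCC where it lies on the other strand).
Tie1: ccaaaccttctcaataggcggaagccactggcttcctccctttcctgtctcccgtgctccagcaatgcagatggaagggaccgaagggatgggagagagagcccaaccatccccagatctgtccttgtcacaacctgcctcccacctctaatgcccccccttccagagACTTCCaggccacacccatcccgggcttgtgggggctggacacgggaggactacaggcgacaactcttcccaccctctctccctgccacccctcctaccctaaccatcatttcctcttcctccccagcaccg
Tek: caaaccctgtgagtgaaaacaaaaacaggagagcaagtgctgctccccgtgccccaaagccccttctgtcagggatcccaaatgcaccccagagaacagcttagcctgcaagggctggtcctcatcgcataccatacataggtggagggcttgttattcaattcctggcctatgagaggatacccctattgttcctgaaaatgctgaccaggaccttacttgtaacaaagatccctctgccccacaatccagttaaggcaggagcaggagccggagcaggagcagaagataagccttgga
Kdr: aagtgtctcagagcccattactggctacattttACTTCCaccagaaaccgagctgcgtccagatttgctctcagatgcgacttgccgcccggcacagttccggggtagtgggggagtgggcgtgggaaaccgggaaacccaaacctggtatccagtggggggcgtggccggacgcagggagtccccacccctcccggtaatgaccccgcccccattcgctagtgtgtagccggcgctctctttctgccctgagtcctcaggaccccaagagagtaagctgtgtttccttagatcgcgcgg
The windows lie at chr4:118489800-118490099 on the minus strand for Tie1, chr4:94739039-94739338 on the plus strand for Tek and chr5:75978406-75978705 on the minus strand for Kdr. Tie1 had 1 match of GGAAGT (at -82 from the start site), Kdr had 1 (at -217) and Tek had 0. The RefSeq table held windows for 6 of the 10 genes (Tie1, Tek, Kdr, Eng, Robo4 and 3 windows of Egfl7). Of these 6 genes 4 had GGAAGT in at least 1 window, against 23.8% of 32851 windows of the same length, where Egfl7 had 3 windows to be found in. The GATA letters AGATAA were found in 1 of the 6 (Tek), against 11.2% of windows. The TATA letters TATAAA were found in 0 of the 6, against 13.6% of windows, and the forkhead letters TGTTTAC in 0 of the 6, against 3.65%. The GC box GGGCGG was found in 2 of the 6, against 35.7% of windows, the E-box CAGCTG in 2, against 16.3%, and the E-box CATCTG in 3, against 17.2%. Each was searched on both strands. In these windows no match of one motif overlapped a match of another, and GC box matches in Egfl7 overlapped each other. Such a match describes the letters in a window and shows no binding.

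Within Egfl7 lies the gene of miR-126a, at chr2:26591357-26591429 (plus strand, GRCm38), and the sequence is shown because the table has a row for it. The mature strand in RefSeq, with its seed (bases 2 to 8) in capitals, is given next.
mmu-miR-126a-3p: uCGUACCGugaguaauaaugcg
The row of Mir126a held 0 counts in all 3 KO libraries and in all 4 WT libraries. Mature miRNAs are shorter than the RNA that such libraries are made from, so this 0 does not bear on the level of the miRNA.

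Of the 10 genes, 7 stood above 10 CPM (counts scaled to library size with the TMM factors of edgeR) in each of the 7 libraries, Kdr and Ramp2 were low, and Cdh5 was close to undetected. Tie1 had 115, 110 and 112 CPM in ko_306, ko_314 and ko_320, against 85.9, 104, 110 and 119 CPM in wt_284, wt_290, wt_310 and wt_312. The KO libraries sat close together and inside the WT range. Tie1 averaged 112 ± 2.09 CPM in KO (SD, n = 3) and 105 ± 14.1 CPM in WT (SD, n = 4), a log2 fold change (KO minus WT) of 0.10 with a 95% interval from -0.24 to 0.43. Tek had 67.9, 65.0 and 55.3 CPM in the KO libraries, against 53.9, 73.3, 55.5 and 66.3 CPM in the WT libraries, and the groups overlapped throughout. Its log2 fold change was 0.01 (-0.38 to 0.40). Per library, Tie1 was higher than Tek per kilobase of merged exons by a ratio of 1.73 ± 0.187 in KO (SD, n = 3) and 1.63 ± 0.234 in WT (SD, n = 4), and the values of both groups overlapped.

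Kdr had the log2 fold change farthest from 0 among the 9 members tested, which leave out Cdh5. It had 6.03, 6.56 and 6.37 CPM in the KO libraries, against 6.06, 7.55, 14.2 and 12.8 CPM in the WT libraries in the order above. The KO libraries were alike, and the WT libraries split into 2 low ones (wt_284 and wt_290) and 2 high ones (wt_310 and wt_312), of which wt_284 lay inside the KO range. The log2 fold change was -0.68 ± 0.44 (SE), with a 95% interval from -1.63 to 0.26 and an adjusted p of 0.992 in edgeR's quasi-likelihood test with Benjamini-Hochberg adjustment. Among mice numbered above 300, the 3 KO libraries were all below the 2 WT libraries. The log2 fold change was then -1.09, with an unadjusted edgeR p of 0.0451 and an adjusted p of 0.9999. This split keeps all 3 KO libraries and leaves out only wt_284 and wt_290, the 2 low WT libraries. The larger difference follows from that choice and is no separate evidence. The labels do not say what the mouse numbers stand for. Without wt_310 the log2 fold change was -0.48, and without wt_284 it was -0.86.

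Eng, the gene of endoglin, had the most counts of the 10 genes, not corrected for length. It had 173, 169 and 144 CPM in the KO libraries, against 108, 173, 146 and 128 CPM in the WT libraries. Only wt_290 matched the highest KO library, and ko_320 lay below it and below wt_310. The log2 fold change was 0.22 (-0.15 to 0.60). Robo4 had 37.4, 28.2 and 43.2 CPM in the KO libraries, against 26.7, 37.4, 28.4 and 42.8 CPM in the WT libraries. Both groups covered nearly the same range, and the log2 fold change was 0.10 (-0.43 to 0.63).

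**Figure D1:**
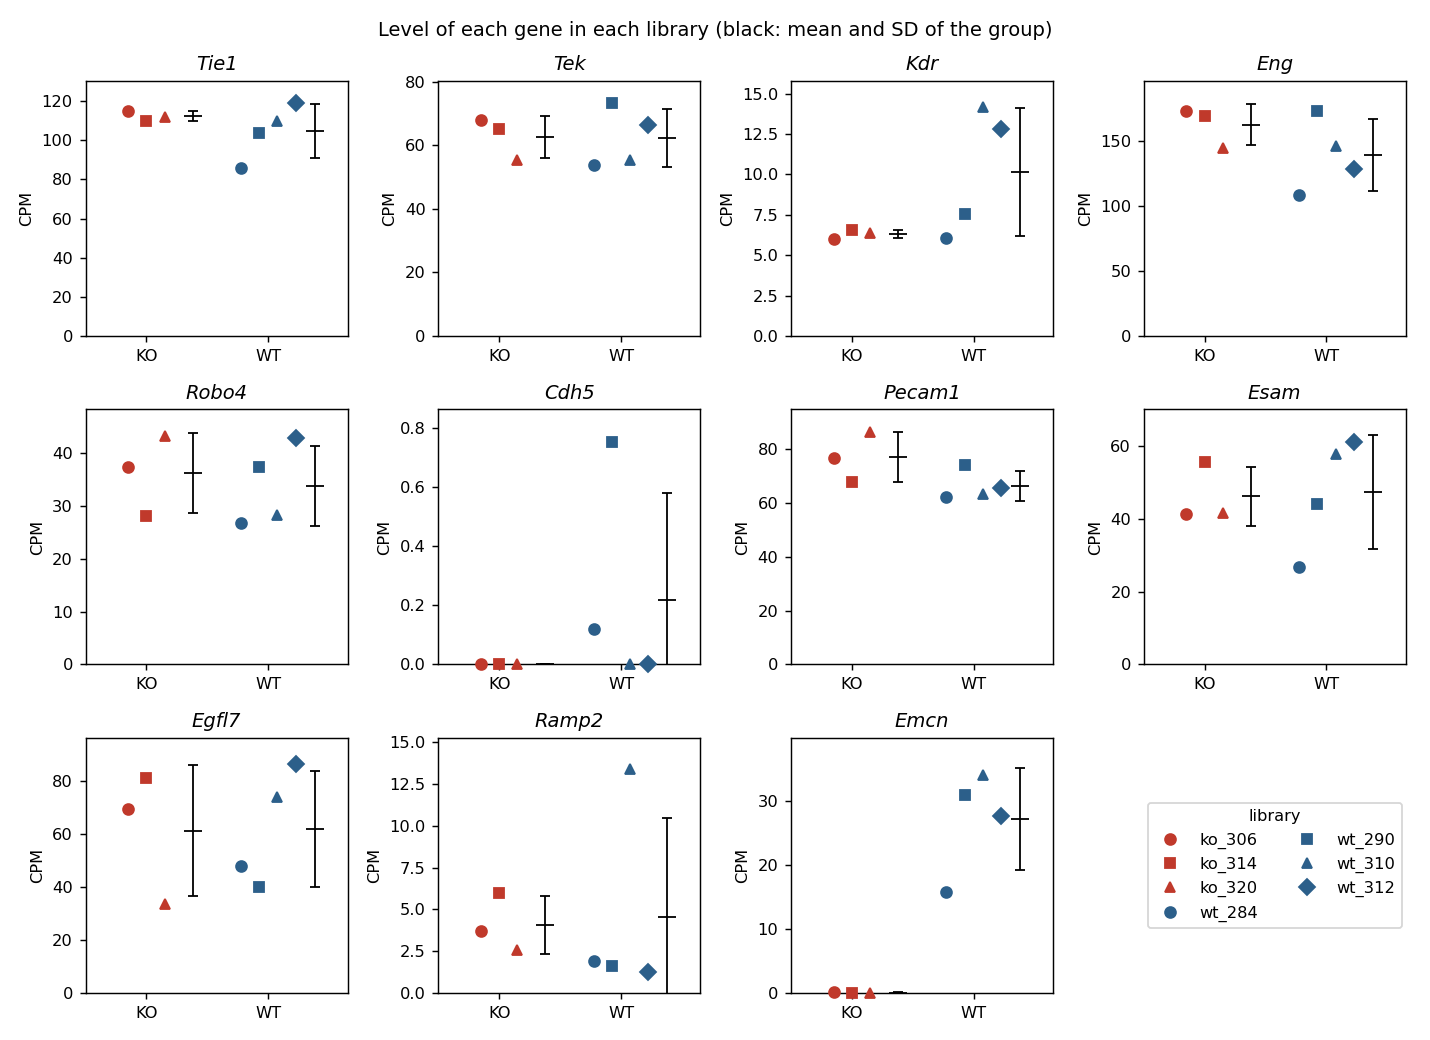
Level in CPM (vertical axis, from 0) of the 10 genes and of Emcn in each library, with KO libraries in red and WT libraries in blue and 1 symbol per mouse; black marks give the mean and SD of each group. Emcn is at or near 0 in KO and between 15.8 and 34.1 CPM in WT, whereas the KO and WT points overlap in each of the other panels, and a single WT point, wt_310, stands high for Ramp2.

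Among the adhesion genes, Pecam1 (CD31) had 76.6, 67.9 and 86.5 CPM in the KO libraries, against 62.3, 74.3, 63.4 and 65.6 CPM in the WT libraries. A KO library was the higher in 11 of the 12 pairs of a KO and a WT library, the exception being ko_314 against wt_290. The log2 fold change was 0.21 (-0.14 to 0.57), with an unadjusted edgeR p of 0.219 and an adjusted p of 0.992. Esam had 41.4, 55.5 and 41.6 CPM in the KO libraries, against 26.8, 44.0, 57.8 and 61.1 CPM in the WT libraries. The lowest and the highest value were both WT, and the log2 fold change was -0.04 (-0.62 to 0.54). Esam and Robo4 lie on chromosome 9 with 113.0 kb and 2 protein-coding genes between them in GRCm38. Their ratio per kilobase, Esam to Robo4, varied from 1.78 to 3.64 among KO libraries and from 1.86 to 3.76 among WT libraries, so these neighbours did not keep a fixed ratio between mice.

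Cdh5, which encodes the VE-cadherin of endothelial junctions, had 0 counts in each KO library, against 1, 8, 0 and 0 counts in wt_284, wt_290, wt_310 and wt_312. Pooled over a group, 0 counts allowed up to 0.115 CPM in KO (3 counts), and the 9 WT counts came to 0.271 CPM with an exact Poisson 95% interval from 0.124 to 0.515 CPM. Since 8 of the 9 came from 1 mouse, and the interval covers counting error only, no difference between KO and WT can be read from it. Cdh5 did not pass the filter on low counts and was not tested in edgeR with that filter.

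Egfl7 and Ramp2 varied between mice more than most other members. Egfl7 had 69.4, 81.1 and 33.7 CPM in the KO libraries, against 47.9, 39.9, 74.1 and 86.6 CPM in the WT libraries. Each group held low and high libraries, with ko_320 the lowest and wt_312 the highest of all, and the log2 fold change was -0.01 (-0.79 to 0.76). Ramp2 had 3.70, 5.97 and 2.55 CPM in the KO libraries, against 1.94, 1.61, 13.4 and 1.28 CPM in the WT libraries, or 43, 40 and 20 counts against 16, 17, 88 and 10 counts. All 3 KO libraries lay above 3 of the WT libraries and below wt_310. The log2 fold change was -0.16 (-2.02 to 1.70), and without wt_310 it was 1.325, with an unadjusted edgeR p of 0.108 and an adjusted p of 0.984.

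In wt_310 some endothelial and platelet transcripts were high and others were not. Stab2, a scavenger receptor of sinusoidal endothelium, had 1.81, 0.447 and 0.509 CPM in the KO libraries, against 0.97, 1.70, 8.71 and 0 CPM in the WT libraries. Ppbp, a platelet chemokine, had 16.0 CPM in wt_310 and at most 0.603 CPM in every other library. Pf4, another platelet chemokine, had 9.56, 18.0 and 27.9 CPM in the KO libraries, against 27.4, 21.8, 23.4 and 4.75 CPM in the WT libraries, where wt_310 lay within the range of the others. In the rest of the megakaryocyte and platelet list, Gp6 (13.0 CPM), Clec1b (7.64), Gp1ba (13.8), Itgb3 (119) and Rab27b (61.0) were highest in wt_310. Gp1bb, Gp9 and Treml1 were not. The endothelium list of 18 genes summed to 23.4 CPM in wt_310, the highest of the 7 libraries, and without Stab2 to 14.7 CPM there, beside 5.86 to 15.8 CPM in KO and 9.12 to 16.8 CPM in the remaining WT mice. Clec14a of that list was also highest in wt_310, at 7.18 CPM. Cdh5, Dll4, Gja5, Ackr1 and Sele had 0 counts in wt_310, but only 9, 86, 15, 19 and 2 counts over all 7 libraries. The part of such transcripts in the Ramp2 value was not tested. Ramp2 also shares a stretch of the same strand with Vps25, a sorting complex gene, so reads could be divided between them in counting. Vps25 had 15.7 CPM in wt_310, its lowest value, beside values of 17.5 to 26.8 CPM in the remaining WT mice.

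None of the 9 tested members passed the threshold. With edgeR's quasi-likelihood test and Benjamini-Hochberg adjustment over 15372 genes at 0.05, 0 of the 9 were higher and 0 were lower in KO, and their adjusted p ran from 0.992 to 0.9987. The background was 0.00651% of all tested genes, which is 1 gene, Emcn itself. At an unadjusted p under 0.05 there were 0 of 9, against 3.27% of all tested genes, and the KO and WT values of 0 of 9 did not overlap, against 4.86% of all tested genes. DESeq2 also called 0 of the 9, beside 10 of all 15372 genes. Limma-voom with quality weights called 0 of all 15372 genes and missed Emcn too. Its 0 of the 9 therefore says nothing about the members. Positive log2 fold changes were found for 5 and negative ones for 4, with a median of 0.01 over the 9, beside a median of -0.02 over all tested genes. The 95% interval lay within 2-fold in either direction for 7 of the 9, the exceptions being Kdr and Ramp2, beside 49.6% of all tested genes. The lack of calls does not show that the genotypes have equal levels. In simulated data the edgeR fit called 2% of 1.5-fold and 26% of 2-fold changes in genes above 10 CPM. As bulk samples, the libraries cannot tell fewer cells with a transcript from less transcript per cell.

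**Figure D2:**
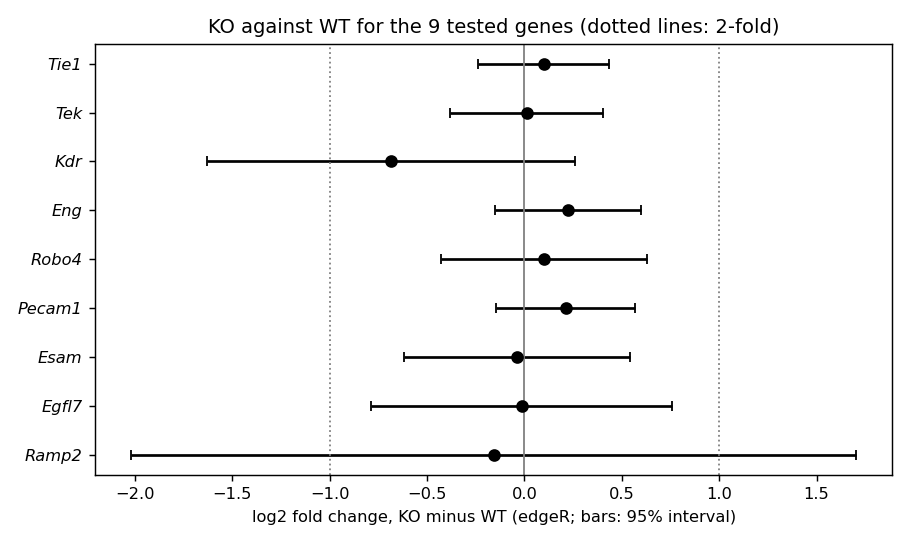
Log2 fold change, KO minus WT, of the 9 tested genes (horizontal axis) with the 95% interval from edgeR; the dotted lines mark 2-fold. The intervals of all 9 genes include 0, and those of Kdr and Ramp2 reach beyond 2-fold.

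Levels of different genes can be compared only per length, and CPM per kilobase of the merged exons of GENCODE M21 is used for that. The order in WT was Eng, Tie1, Egfl7, Esam, Tek, Pecam1, Robo4, Ramp2, Kdr and Cdh5. Eng stood at 40.0 ± 3.90 CPM per kilobase in KO (SD, n = 3) and 34.3 ± 6.83 in WT (SD, n = 4). Tie1 stood at 22.9 ± 0.425 in KO and 21.3 ± 2.86 in WT on this scale, and Kdr at 0.700 ± 0.0299 in KO and 1.13 ± 0.439 in WT. The Tie1 to Kdr ratio per kilobase was 34.9, 30.9 and 32.4 in the KO libraries and 26.0, 25.3, 14.2 and 17.1 in the WT libraries. Every library thus held at least 14.2 times as much Tie1 as Kdr per kilobase of merged exons. The ranges of the 4 WT libraries did not overlap between Eng and Tie1, between Pecam1 and Robo4, between Robo4 and Ramp2, or between Kdr and Cdh5. From Tie1 down to Pecam1 each gene overlapped its neighbour, as did Ramp2 and Kdr, and those orders held in 4 to 6 of the 7 libraries only.

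The order depends on which length is used. With the longest coding transcript in place of the merged exons, Egfl7 moved to the first place, at 44.7 CPM per kilobase in WT against 17.3 on merged exons, and Pecam1 moved above Tek. Egfl7 has 19 annotated transcripts in GENCODE M21, with 3581 bases of merged exons and a longest coding transcript of 1391 bases. Robo4, Ramp2, Kdr and Cdh5 kept the last 4 places among the members in the same order with either length. With the longest coding transcript, wt_310 had 26.0 CPM per kilobase of Tie1 and 2.40 of Kdr, a smaller ratio than on merged exons. Emcn came to 10.5 ± 3.09 CPM per kilobase in WT (SD, n = 4) with the longest coding transcript, above Robo4 at 6.83 ± 1.53.

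**Figure D3:**
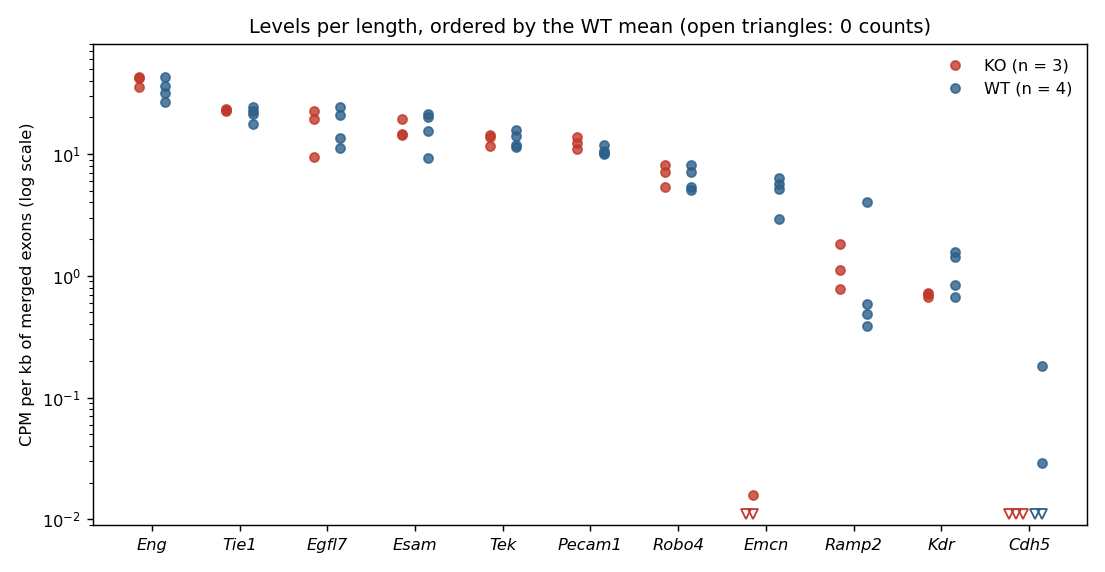
CPM per kilobase of merged exons (vertical axis, log scale) in each KO library (red) and WT library (blue), ordered by the WT mean, with Emcn placed among the members; open triangles mark libraries with 0 counts. On this length Emcn in WT lies between Robo4 and Ramp2 (above Robo4 with the longest coding transcript), and Cdh5 has counts in 2 libraries only.

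On merged exons, Emcn in WT libraries stood between Robo4 and Ramp2, at 5.01 ± 1.48 CPM per kilobase (SD, n = 4). Robo4, at 6.38 ± 1.43 on the same scale, was above Emcn in 3 of the 4 WT libraries, and Eng, Tie1, Egfl7, Esam, Tek and Pecam1 were above it in all 4. With the longest coding transcript as length, Robo4 was above Emcn in 0 of the 4, Tek in 3, and Eng, Tie1, Egfl7, Esam and Pecam1 in all 4. The ratio of Eng to Emcn per kilobase of merged exons was 9.15, 7.49, 5.71 and 6.19 in wt_284, wt_290, wt_310 and wt_312. With 4 WT libraries no correlation is given. Likeness to Emcn was measured as the root mean square distance of log2 CPM, each gene centred on its own WT mean, where 0 means the same pattern. It was taken for members only, so how many other genes lie as near is not known. Emcn itself lay at -0.72, 0.24, 0.39 and 0.09 in wt_284, wt_290, wt_310 and wt_312. Its widest departure was thus in wt_284, which weighs on every distance. Esam was the nearest, at 0.224, followed by Eng at 0.262, Tie1 at 0.302 and Kdr at 0.350, and Ramp2 was the farthest at 1.22. This order rests on single libraries, since the nearest gene was Eng without wt_284 (0.165), Kdr without wt_290 (0.108), Robo4 without wt_310 (0.203) and Esam without wt_312 (0.118). Esam and Emcn were both lowest in wt_284, by 0.75 and 0.72 below their WT means on the log2 scale. Esam did not differ with the loss of Emcn beyond the spread between mice, as its values above show.

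The library wt_284 was the lowest WT library for 7 of the 9 tested members, beside 26.0% of all tested genes, and for Emcn. The same held for 13 of the 14 long-term stem cell genes, for 9 of 15 shared transcription factors and for 8 of 14 other genes of the endothelial type. It also held the most transcripts of other marrow cells. The neutrophil and monocyte list of 16 genes summed to 218 to 716 CPM in KO, against 15300 CPM in wt_284 and 262 to 1330 CPM in the 3 remaining WT mice. All 16 had negative log2 fold changes and 0 passed, with 4 at an unadjusted p under 0.05. The erythroid list of 10 genes summed to 86.2 to 182 CPM in KO, against 2280 CPM in wt_284 and 126 to 531 CPM in the 3 remaining WT mice. The sort had depleted lineage-positive cells, Gr-1, CD11b and Ter119 included. The long-term stem cell list of 14 genes, which includes Kit, Procr and Mecom, summed to 2990 to 3210 CPM in KO, against 1960 CPM in wt_284 and 2870 to 3340 CPM in the 3 remaining WT mice. Scaled by the counts of that stem cell list in place of TMM, 1 of the 9 members, Esam, was lowest in wt_284, beside 6.34% of all tested genes. Relative to the mean of the other 3 WT libraries, wt_284 was lower for all 9 by TMM, with a median of -0.47 on the log2 scale, and lower for 3 of the 9 by the stem cell list (Kdr, Esam and Ramp2), with a median of 0.16. Emcn was lower in wt_284 under both scalings, by -0.97 with TMM and -0.36 with the stem cell list. Dividing by that list, itself low in wt_284, shifts every gene there upward by nearly the same amount. The changes of sign come from this divisor and are not particular to the members. The part of the other marrow cells in these values was not tested.

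**Figure D4:**
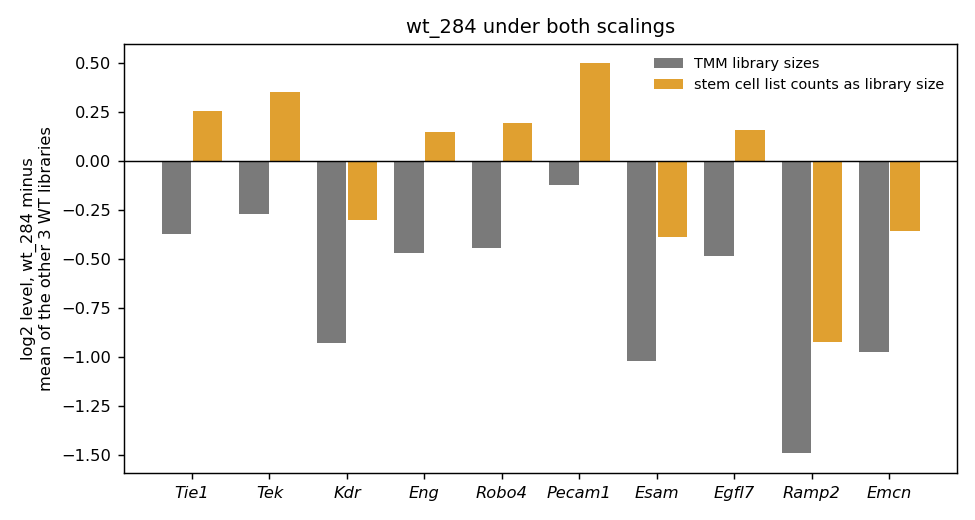
Log2 level of wt_284 minus the mean of the other 3 WT libraries (vertical axis) for the 9 tested members and Emcn, with TMM library sizes (grey) and with the counts of the stem cell list as library size (yellow). All bars are negative with TMM, and those of Kdr, Esam, Ramp2 and Emcn are negative with the stem cell list too. The change of scaling moves every gene by nearly the same amount.

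Endothelial cells of the marrow also carry these transcripts, and a list of their markers was measured; the part of such cells in the members' levels was not tested. The list of 18 endothelial markers summed to 6.37 to 17.6 CPM in KO and to 9.12 to 23.4 CPM in WT. Of the 18 markers, 9 stayed under 1 CPM in every library, among them the tight junction gene Cldn5 (at most 0.775 CPM) and the vascular regulator Sox17 (2 counts in all). Clec14a had the most counts of the list, at 3.01, 1.94 and 4.84 CPM in the KO libraries and 2.42, 4.25, 7.18 and 4.24 CPM in the WT libraries. All 6 tested markers had negative log2 fold changes and 0 passed. The megakaryocyte and platelet list summed to 131 to 152 CPM in KO and to 121 to 264 CPM in WT, the highest in wt_310, and the lymphoid list to 42.7 to 48.4 CPM in KO and 53.2 to 188 CPM in WT.

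The ligands and partners of the receptors gave no call either. Of the 8 tested among 15 angiopoietin and VEGF partners, the log2 fold change was positive for 4 and negative for 4, with a median of -0.05 and 0 calls. Angpt1, the ligand of Tek, was itself abundant in these cells, at 165 ± 17.6 CPM per kilobase in KO (SD, n = 3) and 138 ± 32.5 in WT (SD, n = 4), compared with 13.3 ± 1.41 in KO and 13.2 ± 1.95 in WT for Tek. The log2 fold change of Angpt1 was 0.26 ± 0.18 (SE). Angpt1 had 763 to 946 CPM in KO, against 476 CPM in wt_284 and 734 to 856 CPM in the remaining WT mice. Dok2, an adaptor that docks to Tek, had -0.42 ± 0.28, and Svep1, a matrix protein, had -0.97 ± 0.72. Svep1 had 2.41, 2.09 and 4.46 CPM in the KO libraries, against 1.82, 4.06, 4.89 and 12.7 CPM in the WT libraries, so wt_312 alone lay far above the rest. Nrp2, a VEGF co-receptor, had 1.42 CPM in KO and 2.83 CPM in WT, with its highest value, 5.33 CPM, in wt_284. Flt1 and Flt4, the other VEGF receptors, did not pass the filter and stayed at or below 1.27 and 1.72 CPM. Nrp1, another co-receptor, had 26.8 CPM in wt_284 and at most 1.42 CPM in the other libraries.

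For endoglin, 10 of 14 partners were tested, with 5 positive and 5 negative log2 fold changes, 0 calls and a median of 0.02. Acvrl1 (ALK1), the BMP receptor that works with endoglin in endothelium, had 0.861, 0.149 and 0 CPM in the KO libraries, against 33.6, 1.51, 3.06 and 0 CPM in the WT libraries, so that it stayed at or below 3.06 CPM outside wt_284. The type II receptor Bmpr2 had 138 CPM in KO and 139 CPM in WT, and Tgfbr3 (betaglycan), a relative of endoglin, had 116 CPM in KO and 109 CPM in WT. Id1, a BMP target, had a log2 fold change of -2.25 ± 1.31 (SE), Tgfb1 had -0.28 ± 0.17 and Smad1, which carries BMP signals, had 0.35 ± 0.25. Id1 was low, at 0.431, 0.298 and 0.637 CPM in the KO libraries, against 5.70, 1.51, 1.68 and 0 CPM in the WT libraries. Tgfb1 was also highest in wt_284, at 144 CPM, and Smad1 was lowest there, at 21.8 CPM. The circulating ligands Gdf2 and Bmp10 had 0 counts in every library. Of 7 roundabout partners 3 were tested, all with positive log2 fold changes and 0 calls. Robo1 had 0.43 ± 0.59 (SE), Robo3 had 0.31 ± 0.72 and the ligand gene Slit2 had 0.20 ± 1.00. Per kilobase Robo1 stood at 0.400 in KO and 0.297 in WT, well under Robo4 at 6.84 in KO and 6.38 in WT.

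The partners of cadherin were present without Cdh5. Of the 14 genes of the cadherin and junction list, 13 were in the table and 12 were tested, with 8 positive and 4 negative log2 fold changes, 0 calls and a median of 0.125. The catenin gene Ctnnb1 stood at 39.1 ± 6.27 CPM per kilobase in KO (SD, n = 3) and 38.9 ± 4.93 in WT (SD, n = 4). Ocln, a tight junction gene, had a log2 fold change of 0.65 ± 0.39 (SE), Magi1, a scaffold of junctions, had -1.05 ± 0.68, Icam2, an integrin ligand, had -0.55 ± 0.39 and Cd99l2 had 0.32 ± 0.28. Both Magi1 and Icam2 were highest in wt_312. Magi1 had 2.04 to 7.06 CPM in KO, against 22.1 CPM in wt_312 and 3.59 to 6.06 CPM in the remaining WT mice. Icam2 had 13.6 to 32.7 CPM in KO, against 59.5 CPM in wt_312 and 21.7 to 28.3 CPM in the remaining WT mice. For Ramp2, 2 of 6 partners were tested. Calcrl, its receptor, stood at 32.2 ± 2.67 CPM per kilobase in KO and 32.0 ± 5.47 in WT, and Ramp1, which makes Calcrl a receptor for CGRP, at 24.1 ± 2.80 in KO and 21.1 ± 3.80 in WT. Ramp2 stood at 1.23 ± 0.527 in KO and 1.38 ± 1.80 in WT on the same scale, and Ramp3 had 0 counts in every library, so Ramp1 was the most abundant of the 3 accessory chains in each group.

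Among the transcription factors that endothelium and stem cells share, no call was made and single factors differed in how far apart the groups lay. Of 18 factors 15 were tested, with 8 positive and 7 negative log2 fold changes, 0 calls and a median of 0.03. Erg had 185 CPM in KO and 181 CPM in WT, a log2 fold change of 0.03 ± 0.15 (SE), and Fli1, also of the ETS family, had 168 CPM in KO and 161 CPM in WT (0.06 ± 0.14). Gata2 had 0.23 ± 0.14, Elf1 had 0.22 ± 0.14, Ets2 had -0.54 ± 0.32 and Klf2, a flow-responsive factor of endothelium, had -1.44 ± 0.98. Klf2 and Ets2 were both highest in wt_284, at 61.7 and 74.7 CPM. Gata2 and Elf1 were both lowest there, at 210 and 207 CPM, although Elf1 had 208 CPM in wt_310. The endothelial factors Sox7 and Sox17 had 5 and 2 counts in all. Of 18 other genes of the endothelial type 14 were tested, with 7 positive and 7 negative values, 0 calls and a median of -0.03. Ly6e had -0.40 ± 0.21 (SE), Procr, the protein C receptor, had 0.39 ± 0.24, Plxnd1, a semaphorin receptor, had -0.39 ± 0.27 and Thbd, thrombomodulin, had -1.02 ± 0.84. Ly6e, Plxnd1 and Thbd were each highest in wt_284, at 232, 56.2 and 7.64 CPM.

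The genes whose pattern over the 7 libraries was nearest to the mean of the 9 tested members, by the same distance of centred log2 CPM among 9889 other genes of at least 10 CPM, were Calcrl at 0.0747, Skp2 at 0.0772, 2310057M21Rik at 0.0781, Gm26510 at 0.0826 and Lztr1 at 0.0880. The mean pattern was lowest in wt_284 (-0.40) and highest in wt_310 (0.34). It leans on Ramp2 in wt_310: without Ramp2 the highest library was wt_312 (0.24), the nearest genes were Camk2d, Rora, Tdrd3, Med23 and Rbak at 0.0397 to 0.0530, and Calcrl came to rank 11. Among members of at least 10 CPM, the distance to the mean of all 9 ran from 0.148 for Tie1 to 0.384 for Egfl7. These were ranks 142 and 5483 of 9896 genes, although each member is part of that mean. Over the 7 libraries the coefficient of variation was 9.98% for Tie1, 12.1% for Tek, 12.3% for Pecam1, 16.7% for Eng, 20.2% for Robo4, 25.6% for Esam and 34.0% for Egfl7, beside a median of 21.1% for the 9896 tested genes of at least 10 CPM. In members that were lower, it was 40.9% for Kdr and 99.1% for Ramp2. The median of the 9 tested members was 20.2%, beside 29.6% for all tested genes.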

How the data were processed

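RNA sequencing of sorted LT-HSCs gave 1 table of expected counts per gene, deposited as whole numbers without scaling. Per the submitters' processing notes, the tools were cutadapt and Salmon (no versions); their annotation and gene summary are not stated there. The molecule label reads polyA RNA, and the labels' protocols name a SMARTer stranded total RNA kit and staining that included Sca-1, c-kit, CD150 and CD48.

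Libraries were grouped by their titles into 3 KO and 4 WT. Mouse numbers are unique and no pairing or batch is labelled. KO was tested against WT by the robust quasi-likelihood test of edgeR 4.0.16 (R 4.3.3) after filterByExpr and TMM, with Benjamini-Hochberg adjustment over 15372 genes at 0.05. Standard errors were derived from the F statistic as |log2 fold change| over the root of F. Alternatives used DESeq2 1.42.0 and limma 3.58.1. The fit was tested on simulated data, with changes put into genes above 10 CPM in 3 runs. It called 2% of 1.5-fold, 26% of 2-fold, 80% of 4-fold and 96.7% of 8-fold changes. Of all calls 12.3% were false, and a run without changes gave 0 calls. Floors are 3 counts, and the floors and the Poisson interval of Cdh5 cover counting error only. The intervals of log2 fold changes were built from the standard errors of the quasi-likelihood fit, which include the spread between mice. Distances used a pseudocount of 0.5. Positions and exon lengths come from GENCODE M21 (GRCm38), which held 98.1% of the identifiers with the same version; for Robo4 and Egfl7 the version differed.

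The longest coding transcript as length, the pattern without Ramp2, the wt_284 values under stem cell scaling, the place of Emcn by that length and the endothelium sum without Stab2 were added after seeing the data. Members, lists and rules were chosen with earlier results of these data known. From each partner list the text names the 4 genes with the smallest unadjusted p, or all tested where fewer; Bmpr2, Tgfbr3, Ctnnb1, Erg, Fli1, Nrp1, Flt1, Flt4, Stab2, Ppbp, Pf4, Dll4, Gja5, Ackr1, Sele, Vps25, genes at 0 and other genes named for their level were chosen after their values were seen.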

Additional observations from a re-analysis of the deposited data

Results flagged for a closer look

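Among 23 sets of 4 WT values, 3 had 1 library apart from the rest by Dixon's test at 95%, where chance flags about 1 in 20. Ramp2 had 13.4 CPM in wt_310, with a gap of 0.946 of the whole WT range. The neutrophil and monocyte list summed to 15300 CPM in wt_284 (0.929 of the range), and the lymphoid list to 188 CPM in wt_284 (0.932 of the range). KO has 3 libraries and was not examined in this way.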

How the results depend on the processing

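The number of members called stayed at 0 in each of the 15 alternatives run, and the smallest adjusted p of a member in any of them was 0.725. The number of genes called, 1 as reported, was 81 with no filter on low counts, 10 with DESeq2, 0 with limma-voom with quality weights, 7 with only mice above 300 and 1 to 3 with 1 mouse left out. Emcn was not called by limma-voom (adjusted p 0.991, log2 fold change -8.315). The median log2 fold change of the members ran from -0.17, with the stem cell list as library size, to 0.18, without wt_312. The stem cell list as library size moved the median of all tested genes to -0.24, below the members' median. Sign changes were as follows. With the stem cell list, Tie1 went to -0.0881, Tek to -0.184, Robo4 to -0.0825 and Pecam1 to -0.00299. With limma-voom, Tek went to -0.0348, Esam to 0.0113, Egfl7 to 0.302 and Ramp2 to 0.694. Egfl7 went to 0.00791 with upper-quartile factors and Tie1 to -0.0238 with mice above 300. With 1 mouse left out, Tek ran from -0.0707 to 0.112, Esam from -0.23 to 0.12, Egfl7 from -0.25 to 0.29, Robo4 from -0.0262 to 0.263 and Ramp2 from -0.52 to 1.325, the last without wt_310. Eng stayed positive and Kdr negative in each of the 15. Eng ran from 0.03, with the stem cell list, to 0.33, without wt_290, and was 0.12 without wt_284. Kdr ran from -1.09 to -0.47. With no filter Cdh5 was tested, with -4.04 on the log2 scale (adjusted p 0.725), a size that depends on the prior count. The cause of these shifts was not tested. Cdh5 had 9 counts in all, Ramp2 10 to 88 per library and Kdr 44 to 100 per library. No paired analysis was possible because the labels do not pair KO mice with WT mice.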
